A study of Rattus norvegicus with 7 samples.

Results

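Ppat encodes the amidotransferase that starts the assembly of purines from small precursors, and it was measured here in whole brains of alcohol-preferring (P) and alcohol non-preferring (NP) rats beside the enzymes around it. The set held 10 listed genes, namely Ppat, Paics, Gart, Atic, Adsl, Impdh2, Hprt1, Aprt, Prps1 and Prps2. Their probes were the transcript probes whose accession, without its version, is a RefSeq transcript of 1 of those genes. This gave 8 probes for 7 genes, among 33849 transcript probes on the array, of which 7207 could be named for 6046 genes. Gart, Adsl and Aprt had no matched probe and are not analysed here, and Prps2 had 2. A probe was tested where 3 or more of the 7 arrays showed it above background, and all 8 were tested. The set was selected on the P minus NP difference of Ppat in these arrays, so that difference is given as a description without a test, and the question tested was whether the other genes differed too.

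RNA of each rat's whole brain, carrying a biotin label, was hybridized to an array of its own. The groups were 4 P rats, numbered 1 to 4, and 3 NP rats, numbered 2 to 4, a further NP array having been left out after the authors' quality control. All were adult males labelled as strain Wistar from selective breeding, were doubly housed, and have no alcohol exposure among their labels. All rats of a line share its breeding history, so each difference describes the lines. A whole brain mixes all its cell types, so fewer cells of a type and less RNA per cell cannot be told apart.

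Between 26361 and 27608 transcript probes (77.9% to 81.6%) were above background on the P arrays, against 27577 to 29091 (81.5% to 85.9%) on the NP arrays. The neuronal genes Uchl1 and Nefl, the astrocyte gene Gfap and the myelin gene Mbp were above background on all 7 arrays. Detection was not complete for every marker. The neuronal gene Snap25 was above background on 1 of 4 P and 2 of 3 NP arrays. Stmn2, also neuronal, was so on 1 P and 2 NP arrays, its other spots being missing. The file headers gave 3 scan dates. P rats 1 and 2 were scanned on the same date as NP rats 2 and 3 (date 1), NP rat 4 on date 2, and P rats 3 and 4 on date 3. Only date 1 held both lines, so values within date 1 (2 rats a line, where no spot was missing) are given beside those over 7 arrays for the listed genes and the main pathway genes.

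Cells make purine nucleotides by a pathway that builds the ring on an activated ribose, PRPP, and by salvage, in which ready-made bases are joined to PRPP. The PRPP synthetases Prps1 and Prps2 supply both routes. Ppat transfers an amide nitrogen from glutamine to PRPP, which commits it to ring synthesis and is the step at which the end products inhibit the pathway. Gart, Paics, Adsl and Atic are among the enzymes that act between Ppat and IMP, the branch point from which Impdh2 and Gmps lead to GMP. Hprt1 returns hypoxanthine and guanine, and Aprt returns adenine, to the nucleotide pool. Salvage is known to carry much of the purine supply of the adult brain, and loss of HPRT1 in humans causes Lesch-Nyhan disease.

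Ppat and Paics lie next to each other on chromosome 14 with no protein-coding gene between them, on opposite strands. A head-to-head arrangement of this pair around a shared start region is also known in human and chicken. Their promoter windows are shown because they overlap, while each gene had a probe of its own. Each runs from 250 bases before to 50 bases after the annotated start, taken from RefSeq on build GRCr8 and written 5′ to 3′ on the strand of its gene, and the capitals mark the 74 bases that both windows contain. Ppat lies at chr14:31569760-31570059 on the plus strand and Paics at chr14:31569986-31570285 on the minus strand.

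Ppat: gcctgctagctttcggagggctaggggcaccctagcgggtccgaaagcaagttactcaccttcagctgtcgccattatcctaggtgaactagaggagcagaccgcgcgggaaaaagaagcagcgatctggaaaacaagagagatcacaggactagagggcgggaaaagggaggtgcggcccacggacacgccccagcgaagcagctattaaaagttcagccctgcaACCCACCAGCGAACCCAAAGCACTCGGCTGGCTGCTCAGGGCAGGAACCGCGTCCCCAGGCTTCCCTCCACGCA
Paics: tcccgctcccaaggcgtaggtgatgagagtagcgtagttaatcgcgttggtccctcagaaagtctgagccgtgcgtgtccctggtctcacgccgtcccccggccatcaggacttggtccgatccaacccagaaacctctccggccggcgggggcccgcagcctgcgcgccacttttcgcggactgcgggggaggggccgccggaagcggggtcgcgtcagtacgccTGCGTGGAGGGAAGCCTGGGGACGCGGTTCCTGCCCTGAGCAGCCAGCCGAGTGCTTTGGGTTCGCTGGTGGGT

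The annotated starts of the pair lay 25 bases from each other, with the first bases of the genes overlapping. Since the windows are on opposite strands, the capitals in the Paics line are the reverse complement of those in the Ppat line. The Ppat window was 59.7% and the Paics window 67.7% G and C, against a median of 51.7% over 33469 windows of the same length. On either strand, CCAAT (in 37.5% of all windows), TATAAA (14.2%) and the E-box CACGTG (6.42%) were found in neither. GGGCGG, the GC box, was present 1 time in the Ppat window and absent from the Paics window, and 33.1% of all windows held it. Among the 10 listed genes only the Atic window held CACGTG, with 2 matches. These are matches of letters and no measure of binding.

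Ppat was measured by probe GE1281586. Its normalized log2 signal was 6.33, 6.30, 6.42 and 6.47 in P rats 1 to 4, against 7.81, 7.84 and 7.86 in NP rats 2 to 4. Every P rat lay below every NP rat, as was so for 6.37% of probes with all 7 values. The gap between the lines was wider than the spread within either. The P spread was that of signals at the floor of the array, described below, and is no measure of how Ppat varied among P rats. The means were 6.38 ± 0.08 in P rats (SD, n = 4) and 7.83 ± 0.03 in NP rats (SD, n = 3), a difference of -1.45 ± 0.11 (SE) on the log2 scale. With this background correction the signal was 2.74-fold lower in P rats. Within date 1 the difference was -1.51 ± 0.12 (SE). These values chose the gene for the set and are given without a p.

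The low side of this difference lay at the floor of the array. The Ppat spot was above background in 2 of 4 P rats (rats 3 and 4) and in 3 of 3 NP rats. As scanned, the spot had intensities of 87.0, 83.0, 94.9 and 98.4 in P rats 1 to 4, against 245, 223 and 238 in NP rats 2 to 4. Negative control spots on the same arrays had median intensities of 84.6, 85.3, 102 and 90.5 in the P rats, against 85.1, 83.1 and 85.8 in the NP rats. The Ppat spot of the P rats was therefore about as bright as a spot with no target, whereas that of the NP rats was clearly brighter than the controls. The local background was alike, at 58, 59, 58 and 60 in the P rats, against 58, 58 and 57 in the NP rats. After subtraction of that background the Ppat signal was 29.0, 24.0, 36.9 and 38.4 in P rats, against 187, 165 and 181 in NP rats.

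The size of the Ppat difference depended on how this floor was treated. With plain subtraction in place of the normexp method, which keeps low signals above an offset of 50, the difference was -2.43. In the authors' deposited table the log2 values were -1.74, -1.75, -1.58 and -1.45 in P rats, against 0.80, 0.79 and 0.78 in NP rats, and the difference was -2.42. Over 19 alternative settings the difference ranged from -2.43 to -1.39 and kept its direction.

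**Figure D1:**
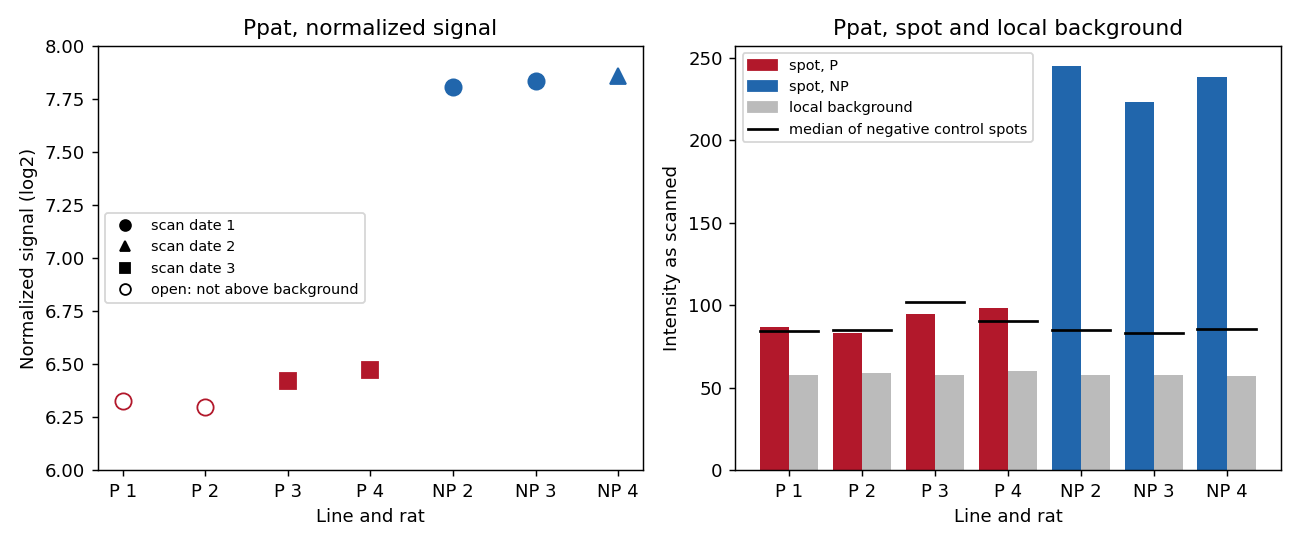
Left, normalized log2 signal of the Ppat probe in each rat (P red, NP blue), with marker shapes for the 3 scan dates and open markers where the spot was not above background. Right, scanned intensity of the Ppat spot (coloured bars), its local background (grey bars) and the median of the negative control spots (black lines) on each array; the P spots lie between 83.0 and 98.4 at the level of the controls and the NP spots between 223 and 245.

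None of the other 6 genes passed the test between the lines. Over 7 arrays 0 of their 7 probes had an adjusted p under 0.05 (limma, Benjamini-Hochberg over all 29003 probes), where 0.29% of all probes tested did. At an unadjusted p under 0.05, 1 of the 7 passed, where 11.5% of all probes did. Among the 6 of these probes with all 7 values 0 had lines that did not overlap, where 13.3% of all such probes did. Of the 7 probes 4 were higher and 3 lower in P rats, with a median difference of 0.0018 against 0.0078 over all probes. The size of the difference, without its sign, had a median of 0.085 for these probes and 0.14 for all probes. All 7 probes were above background on every array on which they had a value. The dimmest spots, of Paics in P rat 2 (intensity 93.9) and of Prps2 GE22116 in P rats 1 and 2 (92.6 and 90.6), nevertheless lay near the negative controls of those arrays.

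Among the enzymes that act between Ppat and IMP, Paics carries out a carboxylation and the ligation that follows it. Its probe GE19491 had log2 signals of 6.79, 6.60, 6.72 and 6.83 in P rats, against 6.88, 6.70 and 7.03 in NP rats. The lines overlapped, with means of 6.73 ± 0.10 in P rats (SD, n = 4) and 6.87 ± 0.16 in NP rats (SD, n = 3). The difference was -0.13 ± 0.12 (SE), with a 95% interval of -0.41 to 0.14 (limma adjusted p = 0.671), and -0.097 within date 1 (adjusted p = 0.682). With plain background subtraction it was -0.24 (adjusted p = 0.626).

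Atic catalyses the final steps to IMP and was the probe with the smallest p among the 7. Probe GE19552 had log2 signals of 7.63, 7.60, 7.68 and 7.70 in P rats, against 7.38 in NP rat 3 and 7.22 in NP rat 4. NP rat 2 has no value because its spot carried the scanner's contamination flag, and the fit dropped it. All P rats lay above both measured NP rats. Among probes with 4 P and 2 NP values, 12.1% had every P rat above every NP rat. The means were 7.65 ± 0.045 in P rats (SD, n = 4) and 7.30 ± 0.11 in NP rats (SD, n = 2). The difference of 0.36 ± 0.13 (SE) had a 95% interval of 0.069 to 0.64 and an unadjusted p of 0.0204, and it did not pass adjustment (limma adjusted p = 0.371). Within date 1 the difference was 0.24, with 1 NP rat left, assumed to vary like the P rats (adjusted p = 0.364). The flagged NP spot had an intensity of 165 after subtraction, against 109 and 101 for the other NP spots, while the P spots had 135, 98.3, 202 and 192 before any scaling between arrays.

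Impdh2, the dehydrogenase that turns IMP toward GMP and limits guanine nucleotide supply, had the smallest difference of the 7 probes. Probe GE1267995 had log2 signals of 8.92, 9.14, 8.95 and 8.86 in P rats, against 8.91, 8.91 and 9.08 in NP rats. The difference was 0.0018 ± 0.12 (SE), with a 95% interval of -0.26 to 0.27 (limma adjusted p = 0.996). Within date 1 it was 0.13 (adjusted p = 0.571). The lines overlapped, and the highest value of each line stood apart from the others of that line.

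For the salvage enzyme Hprt1, probe GE21854 had log2 signals of 10.89, 10.77, 11.39 and 11.29 in P rats, against 11.05, 11.21 and 11.47 in NP rats. The P rats split by scan date, rats 1 and 2 lying below every NP rat and rats 3 and 4 among or above most of them. Over 7 arrays the difference was -0.16 ± 0.18 (SE), with a 95% interval of -0.55 to 0.23 (limma adjusted p = 0.732). Within date 1 it was -0.30 ± 0.13 (SE), with an interval of -0.60 to -0.0026 and an adjusted p of 0.182. Without the P rats of date 1 the direction turned and the difference was 0.098.

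The PRPP synthetases did not pass either. Prps1, probe GE20445, had log2 signals of 11.25, 11.24, 11.32 and 11.67 in P rats, against 11.20, 11.36 and 11.48 in NP rats, a difference of 0.028 ± 0.14 (SE; 95% interval -0.28 to 0.34; limma adjusted p = 0.949), and -0.030 within date 1 (adjusted p = 0.904). P rat 4 was the highest of all 7. For Prps2, probe GE19874 had 7.26, 7.11, 7.20 and 7.07 in P rats, against 7.18, 7.16 and 7.13 in NP rats, a difference of 0.0062 ± 0.11 (SE; 95% interval -0.23 to 0.25; adjusted p = 0.986), and 0.017 within date 1 (adjusted p = 0.946). Its other probe, GE22116, had 6.57, 6.70, 6.64 and 6.62 in P rats, against 6.78, 6.78 and 6.59 in NP rats, a difference of -0.085 ± 0.11 (SE; 95% interval -0.33 to 0.16; adjusted p = 0.773). That difference was -0.15 within date 1 (adjusted p = 0.490) and -0.16 with plain background subtraction. The lines overlapped for all 3 probes, and the intervals of both Prps2 probes included 0.

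**Figure D2:**
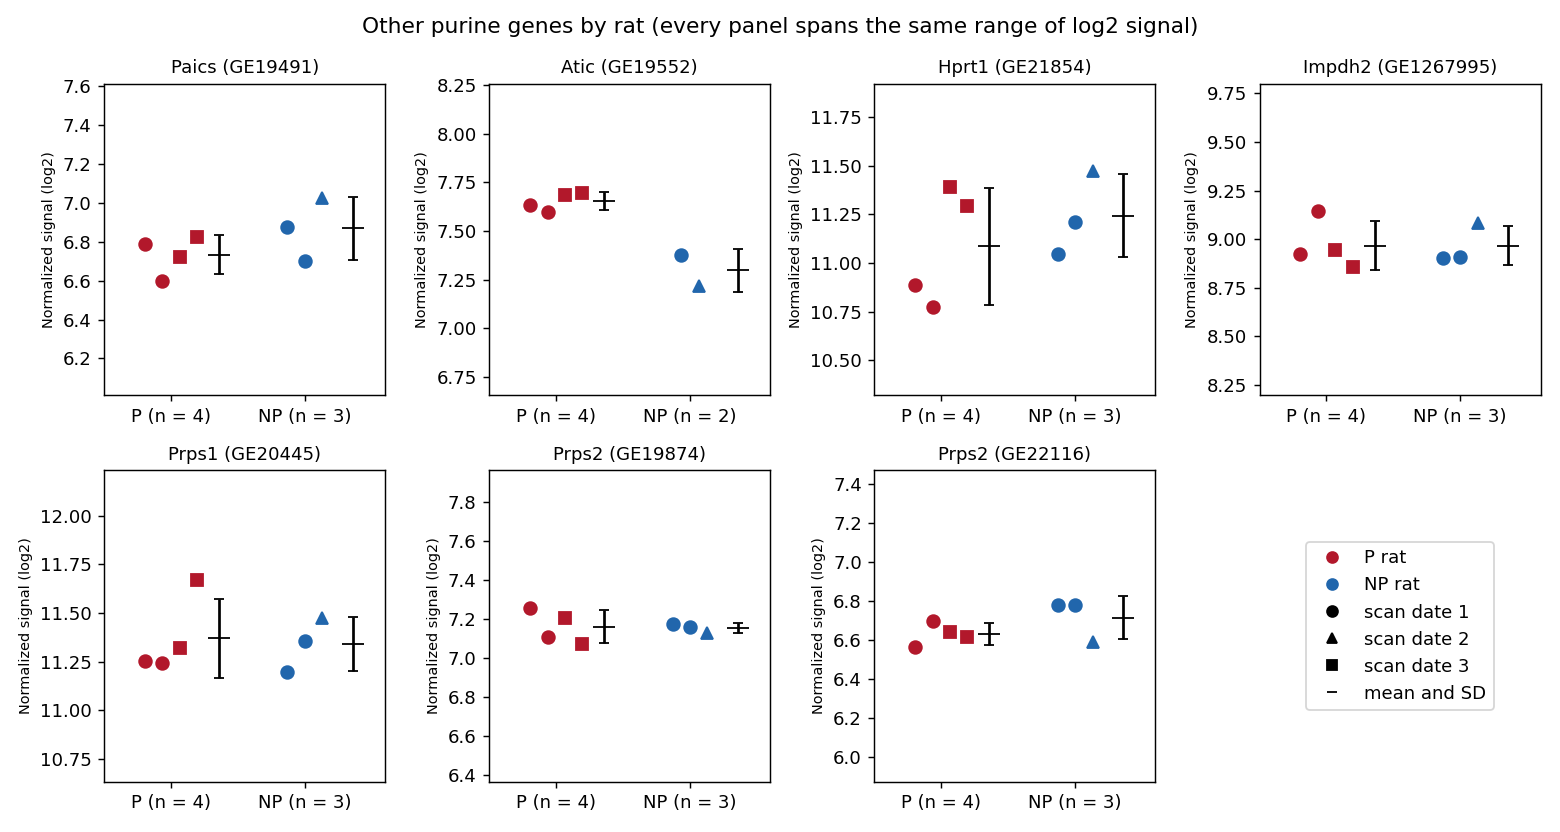
Normalized log2 signal of the 7 probes of the other 6 genes in each rat (P red, left; NP blue, right), with marker shapes for the scan dates and black bars for the mean and SD; every panel spans the same log2 range. Only in the Atic panel do the lines lie apart, with 2 NP values, and in the Hprt1 panel the P rats split by scan date.

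For these 7 probes the widest 95% intervals over 7 arrays ran as low as -0.55 (Hprt1) and as high as 0.64 (Atic). A p that misses the threshold does not show that the lines were alike. Within date 1, 0 of the 7 probes were called, where 6.47% of all 28919 probes tested there were. At an unadjusted p under 0.05, 1 of the 7 (Hprt1) passed, where 27% of all probes did. Their differences within date 1 ranged from -0.30 for Hprt1 to 0.24 for Atic.

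**Figure D3:**
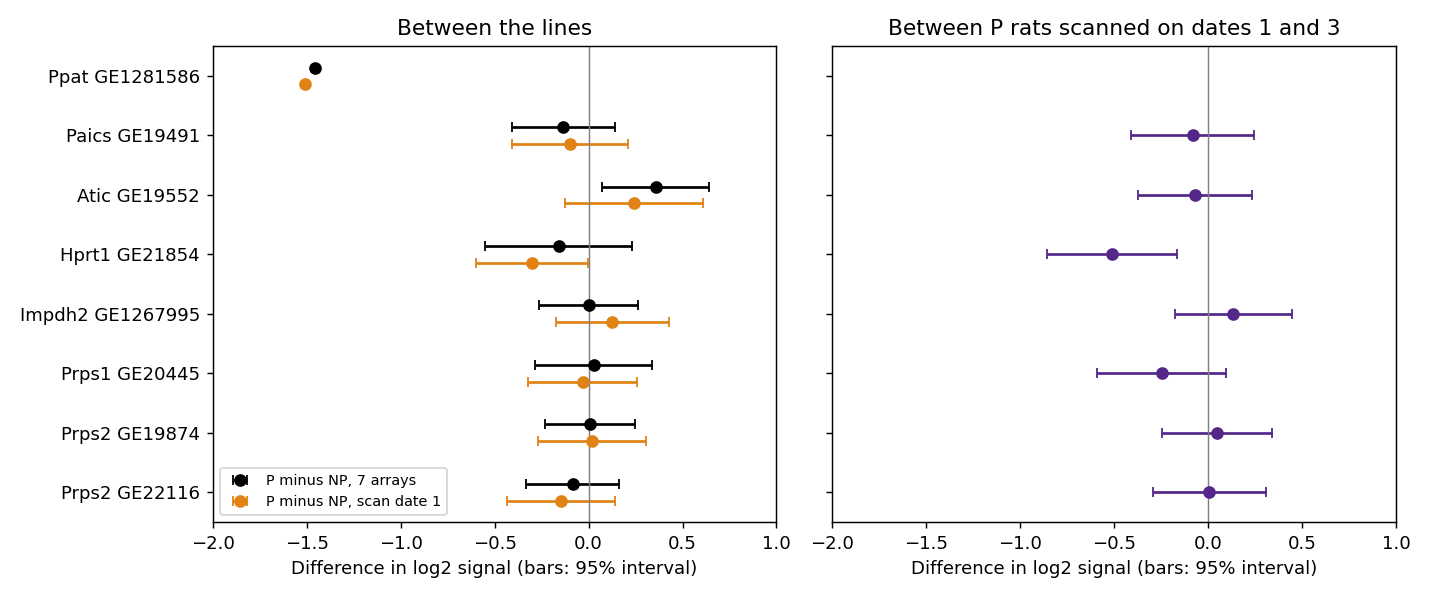
Left, P minus NP difference in log2 signal for each probe over 7 arrays (black) and within scan date 1 (orange). Right, P rats of scan date 1 minus P rats of scan date 3 (purple), with Ppat not drawn because its P signals lay at the level of the controls. Bars are 95% intervals, not drawn for Ppat on the left since that difference chose the gene; Ppat lies at -1.45 and -1.51, and the other 7 probes lie between -0.30 and 0.36 on the left.

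How far the genes varied within a line was read from the P rats, of which 2 were scanned on date 1 and 2 on date 3. Over all probes 14% were called between these pairs of P rats (limma, 28923 probes tested). Among the 7 probes other than Ppat 0 were called. For Ppat, whose spots lay at the level of the negative controls in all 4 P rats, a difference between them cannot be read. Hprt1 came nearest, at -0.51 ± 0.16 (SE; date 1 minus date 3; 95% interval -0.86 to -0.17; adjusted p = 0.0508), and its adjusted p was between 0.0265 and 0.248 over 12 alternatives, under 0.05 in 4 of them. It was the only 1 of the 7 with an unadjusted p under 0.05, where 30.1% of all probes had one. The 6 others had differences from -0.25 (Prps1) to 0.13 (Impdh2). What set the scan dates apart beside the scan was not tested.

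Beyond the listed enzymes, 93 genes in 9 lists of adjoining pathways were looked up, and 47 were tested. None was called between the lines over 7 arrays, where 0.29% of all probes were, and the smallest adjusted p was 0.340 (limma). At an unadjusted p under 0.05, 3 passed, where 11.5% of all probes did. Of the 47 genes 29 were higher and 18 lower in P rats, with a median difference of 0.047. Within date 1, 0 were called, where 6.47% of all probes were, and the median difference was -0.029.

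In the 3 purine lists 17 of 35 genes were tested, 11 higher and 6 lower in P rats, and 0 were called. Gmps, the amidotransferase that makes GMP from XMP with glutamine as Ppat does for its own substrate, had the smallest p of all 47 over 7 arrays. Its log2 signals were 8.47, 8.17, 8.63 and 8.63 in P rats, against 8.88, 8.77 and 9.09 in NP rats. Every P rat lay below every NP rat, which was so for 6.37% of probes with all 7 values. The difference was -0.44 ± 0.15 (SE; adjusted p = 0.340), and -0.51 within date 1 (adjusted p = 0.0665). The PRPP synthetase-associated proteins, which hold the synthetases in check, differed by 0.14 ± 0.13 (SE; Prpsap1; adjusted p = 0.673) and -0.036 ± 0.12 (SE; Prpsap2; adjusted p = 0.921), and by 0.092 and 0.0055 within date 1.

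Among 8 genes of purine salvage and breakdown 7 were higher and 1 lower in P rats over 7 arrays, 4 were higher and 4 lower within date 1, and 0 were called in either. The median difference was 0.21 over 7 arrays and 0.029 within date 1. Dck, which phosphorylates deoxynucleosides, had log2 signals of 9.06, 9.36, 10.01 and 10.21 in P rats, against 9.04, 9.42 and 8.87 in NP rats. The high values were those of the P rats of date 3, and the difference was 0.55 ± 0.26 (SE; adjusted p = 0.448) over 7 arrays but -0.020 within date 1. Uox, which oxidizes uric acid in rodents, differed by 0.28 ± 0.13 (SE; adjusted p = 0.428), and by 0.19 within date 1. Xdh, which makes uric acid, had signals of 7.61, 7.39, 7.07 and 7.23 in P rats, against 7.10, 7.12 and 6.91 in NP rats, a difference of 0.28 ± 0.15 (SE; adjusted p = 0.469), and 0.40 within date 1 (adjusted p = 0.102). The guanine deaminase Gda was the lower gene, at -0.13 (adjusted p = 0.713). The 6 kinases that carry purine nucleotides to their diphosphates and triphosphates differed by between -0.30 (Nme3) and 0.36 (Nme1), with 3 higher and 3 lower in P rats. Within date 1, 1 was higher and 5 were lower, with a median of -0.34 against -0.014 over 7 arrays. Nme1, a nucleoside diphosphate kinase, turned to -0.48 there (adjusted p = 0.105). Its log2 signals were 8.77, 8.30, 9.31 and 9.35 in P rats, against 9.02, 9.02 and 7.70 in NP rats. What turned the direction was not tested.

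The 6 lists outside purine metabolism gave no calls between the lines either, over 7 arrays or within date 1. In pyrimidine synthesis and salvage 7 of 16 genes were tested, and the smallest p belonged to Umps, which makes UMP, at 0.20 ± 0.11 (SE; adjusted p = 0.501). In folate one-carbon supply, which feeds carbons to the ring through Gart and Atic, 6 of 12 were tested, led by the methionine synthase Mtr at 0.18 ± 0.12 (SE; adjusted p = 0.541). For the pentose phosphate pathway, the source of ribose for PRPP, 3 of 9 were tested, led by the transketolase Tkt at 0.22 ± 0.16 (SE; adjusted p = 0.589). Among genes of glutamine amide transfer and supply 7 of 12 were tested, and the first was again Gmps, which stood in both lists. In deoxynucleotide formation 4 of 6 were tested, led by thioredoxin Txn1, an electron donor of ribonucleotide reductase, at -0.37 ± 0.14 (SE; adjusted p = 0.384). Within date 1 Txn1 differed by -0.50 (limma adjusted p = 0.0526), the smallest adjusted p of the 47 pathway genes there. In that list 1 gene was higher and 3 were lower over 7 arrays, and all 4 were lower within date 1, with a median of -0.32. Of regulators tied to growth 4 of 8 were tested, led by the transcription factor Atf4 at -0.18 ± 0.12 (SE; adjusted p = 0.557).

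**Figure D4:**
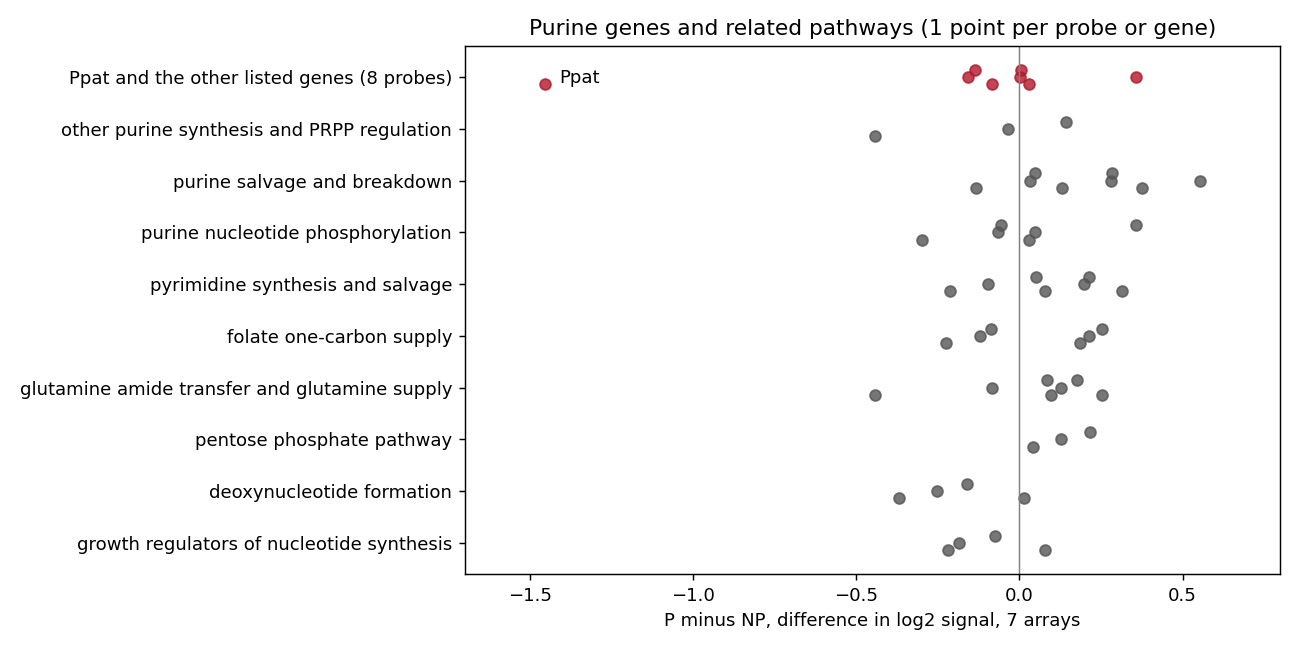
P minus NP difference in log2 signal over 7 arrays for the 8 probes of the listed genes (red) and for each tested gene of 9 pathway lists (grey, 1 point per gene, Gmps shown in both of its lists). Ppat lies at -1.45, while the 47 pathway genes lie between -0.44 and 0.55.

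Between the P rats of date 1 and those of date 3, 5 of the 47 pathway genes were called, where 14% of all probes were. Lower in the P rats of date 1 were Dck at -0.91 (limma adjusted p = 0.0105), the nucleoside diphosphate kinase Nme2 at -0.80 (adjusted p = 0.0113) and the AMP deaminase Ampd3 at -0.57 (adjusted p = 0.0445). Higher there, and named after its value was seen, was the folate enzyme Aldh1l1, also an astrocyte marker, at 0.56 (adjusted p = 0.0383). Of the 17 purine genes 3 were called, so neither count stood far from the share over all probes.

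Where genes had more than 1 probe, the probes did not always move together. For the asparagine synthetase Asns the probes gave -0.29 and 0.18, and for the folate enzyme Mthfs 0.33 and -0.22, with none called. Ppat had a single matched probe, so no other probe could be set beside it.

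Of 45 genes marking brain cell types and dividing cells, 34 were tested and 0 were called between the lines over 7 arrays, where 0.29% of all probes were. Within date 1, 3 were called, where 6.47% of all probes were. They were the microglial gene Aif1, at -1.23 (limma adjusted p = 0.0138), against -0.81 ± 0.24 (SE; adjusted p = 0.302) over 7 arrays; the neurofilament Nefm, at -0.81 (adjusted p = 0.0295); and the transporter Slc22a6, at 0.57 (adjusted p = 0.0428). Over 7 arrays Nefm differed by -0.20 ± 0.32 (SE; limma adjusted p = 0.816). P rats 3 and 4, of date 3, had Nefm signals of 11.09 and 11.11, above every NP rat. Of the neuronal markers, 2 were higher and 2 lower within date 1, Nefm included, with a median difference of 0.011. Slc22a6 differed by 0.72 ± 0.18 (SE; adjusted p = 0.244) over 7 arrays. Between the P rats of dates 1 and 3, Nefm (-1.21, adjusted p = 0.0030) and Aif1 (-0.75, adjusted p = 0.0248) were called, where 14% of all probes were. Aif1 had log2 signals of 8.77, 8.21, 9.41 and 9.09 in P rats, against 9.60, 9.85 and 9.59 in NP rats. Summed over 6 microglial markers the linear signal was 3876 to 4239 in P rats, against 3783 to 4319 in NP rats, and the lines overlapped. The mean log2 signal of the same 6 markers was 8.69 to 8.80 in P rats, against 8.80 to 8.94 in NP rats. The highest P rat lay just below the lowest NP rat (8.802 against 8.804). The mean of the 3 vascular and meningeal markers also lay apart, but higher in P rats, at 9.54 to 9.84 against 9.18 to 9.53. Flt1 of that list had no value in P rat 1. In the other marker lists the means of the lines overlapped. Aif1 had the largest difference of the 6 microglial markers over 7 arrays, the others lying between -0.20 (Cd68) and 0.23 (Csf1r). Of the 6, 2 were higher and 4 lower in P rats over 7 arrays, with a median difference of -0.018. Within date 1, 4 were higher and 2 lower, with a median of 0.072. The sum over 3 markers of dividing cells, which draw on purine synthesis, was 1048 to 1424 in P rats, against 1320 to 1431 in NP rats. The part of these markers in the Ppat difference was not tested.

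The genes around Ppat on chromosome 14 were looked at in gene order, taking the nearest named and tested genes. Paics, its nearest neighbour, is described above. On the same side, the homeobox gene Hopx differed by -0.12 (limma adjusted p = 0.680) and the transcriptional repressor Rest by 0.40 ± 0.16 (SE; adjusted p = 0.418), Rest being above background on 4 of 7 arrays. On the other side, the exocyst gene Exoc1 differed by -0.078 (adjusted p = 0.893), the neuropeptide gene Nmu by 0.26 (adjusted p = 0.596) and the circadian gene Clock by 0.030 (adjusted p = 0.938). Within date 1 Exoc1 differed by -0.36, Hopx by -0.22, Clock by -0.049 and Nmu by -0.041, and Rest had no value there. None of these 6 neighbours was called over 7 arrays.

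The named genes whose values were most like those of Ppat over the 7 arrays, among 5295 genes with all 7 values, were the GABA-A receptor subunit gene Gabra5 (Pearson r of 0.984), the pleckstrin gene Plek (0.975), the spindle gene Haus1 (0.972), the tetraspanin gene Cd151 (0.966) and the phosphotriesterase-related gene Pter (0.963). All were lower in P rats, by -0.27 for Haus1 to -2.40 for Cd151. Since Ppat fell into separate clusters by line, such an r carries mainly the difference between lines, and it is a description of 7 arrays with no test. With the mean of each line taken off, the most alike genes were Chmp5 (r of 0.994), Pms1 (0.993), Adh7, Dync1i2 and Mid1ip1 (0.991 each), none of which was among the first 5. On that measure Hprt1 had an r of 0.89 and Prps1 of 0.85 with Ppat, and the other 5 probes lay between -0.51 and 0.47. These values share arrays and scan dates, and the spread of Ppat within a line was small. It was larger in the P rats, whose Ppat spots lay at the level of the negative controls. The r values with the line means taken off therefore cannot show that any gene varied with Ppat.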

How the data were processed

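RNA from whole brain of 4 P and 3 NP rats was measured on 1-colour arrays, 1 rat each; groups and replicate numbers came from the sample titles. Per the file headers, the deposited scanner tables hold linear intensity values, namely the mean of each spot, the median of its local background, their difference, a scaled difference and a quality flag. A deposited table from the authors holds log2 values, which followed log2 of the scaled intensity on each array (r from 0.9985 to 0.9999), with array medians from -0.069 to 0.047. How it was made, and whether it was adjusted between arrays, is not stated there, and the sources used here name neither the scanner software nor a genome build.

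Spot and background intensities were corrected in limma 3.58.1 (R 4.3.3) by normexp with an offset of 50, then quantile normalized over 33849 transcript probes. The 240 positive and 256 negative control spots were removed after the correction. Spots with an outlier flag were set to missing, and saturated spots stayed in. Of the probes, 29008 were above background on at least 3 of 7 arrays and 29003 could be fitted with lmFit and eBayes. A call is an adjusted p under 0.05 (Benjamini-Hochberg). Besides the comparison of lines, P rats of scan dates 1 and 3 were compared in a fit of 3 groups. The fit was tested first on simulated data with independent normal noise for each probe. Those data held no scan date effect, missing spots or floor, so they cannot show how the fit deals with these. The number of arrays limits the precision, and levels of different probes were not compared.

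Probes were named through RefSeq transcripts of the GRCr8 table, used otherwise only for gene order and promoter sequences; all 10 listed genes had a promoter entry. The members and lists were chosen with earlier results of these data known. Named genes were all members, any tested gene of the purine lists, and from each further list those called between the lines or, failing that, the gene with the smallest p. Some further cell type markers are named beside these. The values of 1 gene of these lists are not reported here. A gene with several probes is represented by the one with the highest mean. Replicate numbers were taken as names only. Deviations from the line mean correlated at 0.097, 0.057 and 0.021 between rats of the same number. Between rats of different numbers they correlated at -0.32 (P rat 3 and NP rat 2) to 0.36 (P rat 1 and NP rat 2). With so few rats these values cannot settle whether the numbers pair the rats. The alternatives covered background correction, scaling, the filter, the authors' table, the variance prior, blocks for scan date and replicate number, and rats left out.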

Additional observations from a re-analysis of the deposited data

Results flagged for a closer look

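In P rat 3 values of 3 genes stood apart from those of the other P rats, by the gap to the nearest rat divided by the range of the 4. The 5′-nucleotidase Nt5e had a log2 signal of 8.20 in P rat 3, against 7.76 to 7.83 in the other P rats. The GMP reductase Gmpr had 7.88, against 6.78 to 6.86, and the transporter Slc22a6 had 8.15, against 8.44 to 8.47. Chance alone would give about 1.8 such cases among the 37 sets of 4 P values examined. These were of the members, the purine lists, and the genes called or with the smallest p in each other list. The last were picked by their values, so the number given for chance is approximate. The 3 NP rats were too few to examine in this way. None of the 8 probes of the listed genes stood out.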

How the results depend on the processing

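No alternative brought any other listed gene past the threshold between the lines: the count was 0 in all 20 settings, and 0 in the 6 tried within date 1. The number of all probes called between the lines, 84 in the fit reported, was 49 among probes above background on all 7 arrays, 51 in the authors' table, 1655 with scan date as a block, 1870 within date 1 alone, 189 without the P rats of date 1 and 3318 without those of date 3. Leaving out 1 rat at a time gave 51 to 121, with 53 without NP rat 3 and 51 without NP rat 4. Within date 1 the count of 1870 was 36 in the authors' table and, by leaving out 1 rat at a time (added after seeing the data), 255 to 2216, with 255 without P rat 2 and 882 without NP rat 3. Between the P rats of dates 1 and 3 the count of 4046 was 1178 with plain subtraction, 1409 in the authors' table and 345 to 4832 by leaving out 1 rat, with 2282, 345, 1029 and 2692 without P rats 1 to 4. Where this leaves a lone rat, it is assumed to vary like the other groups. There, 1 listed gene, Hprt1, was called with median centring (adjusted p = 0.0414) and with a variance prior that follows intensity (adjusted p = 0.0466), and 0 to 1 by leaving out 1 rat, with Hprt1 called without NP rat 2 (adjusted p = 0.0434) and without NP rat 4 (adjusted p = 0.0265).

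Directions turned mainly for differences near 0. Between the lines Hprt1 was 0.098 without the P rats of date 1. Impdh2 was -0.015 with cyclic loess, -0.010 in the authors' table, -0.065 without the P rats of date 1 and -0.057 to 0.059 by leaving out 1 rat. Prps1 was -0.030 with scan date as a block and within date 1, -0.096 without the P rats of date 3 and -0.072 to 0.094 by leaving out 1 rat. Prps2 GE19874 was -0.026 with the replicate block, -0.017 without the P rats of date 1 and -0.026 to 0.036 by leaving out 1 rat. Between the P rats of dates 1 and 3, median centring gave 0.18 for Ppat (at the level of the controls in all 4 P rats), 0.097 for Paics and -0.062 for Impdh2, and the authors' table gave -0.0047 for Prps2 GE19874 and -0.032 for Prps2 GE22116. Leaving out 1 rat there gave -0.18 to 0.012 for Paics, -0.027 to 0.12 for Prps2 GE19874 and -0.062 to 0.072 for Prps2 GE22116. For the turns and moved counts the cause was not tested. Ppat ranged from -1.49 to -1.43 between the lines by leaving out 1 rat, and was not in the fit of probes above background on all 7 arrays. With the replicate block, on the 6 arrays whose numbers both lines share, 104 probes and 0 of the other listed genes were called.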
